A study of Mus musculus with 4 samples.

Results

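The synaptic vesicle release machinery was followed through 8 genes chosen by symbol for their known roles in release: Snap25, Stx1a, Vamp2, Syt1, Syp, Syn1, Unc13a and Rims1. All 8 were found among the 49997 genes of the count tables. The 4 libraries came from a wild-type mouse line, the immortalized multipotent otic progenitor (iMOP), a line of inner ear progenitor cells. Proliferating iMOP cells (2 libraries) were kept in DMEM/F12 with B27 and bFGF at 20 ng/ml. The iMOP-derived neurons (2 libraries) were kept in Neurobasal medium with N21, L-glutamine and K03861, a CDK2 inhibitor, at 1 µM. Both groups come from a single cell line, so medium, growth factor and inhibitor differ together between them and cannot be told apart. The titles call the replicates biological, and those of both replicate 2 libraries also carry the words set 2. Libraries with the same replicate number are called a pair here.

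Release of transmitter from a nerve ending starts when a vesicle docks at the active zone, the patch of membrane that faces the target cell. SNARE proteins on the vesicle and on the cell membrane then zip together, and a calcium sensor triggers their fusion when calcium enters. Neurons of the inner ear ganglion use this machinery at their central endings, and many of its genes are known targets of REST, a repressor of neuronal genes in cells that are not neurons.

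No difference between proliferating cells and neurons passed the test for any of the 7 genes tested. Transcripts of 7 of the 8 genes were counted in all 4 libraries, proliferating cells included. Rims1 had at most 2 counts and was not tested. None of the 7 genes that passed the filter on low counts was called by edgeR, which called 0 of all 12783 genes tested. For Snap25, Syt1, Syp and Unc13a the neurons were lower in pair 1 and higher in pair 2. These are 57.1% of the 7, against 24.5% of all tested genes. Of these 4 genes, only Snap25 differed beyond counting error in both pairs.

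The libraries held between 7446361 and 14484011 counts, of which 53.3% to 76.1% fell on the 18S ribosomal RNA row, with more in replicate 2 of each group. Between 2595578 and 3850766 counts remained without that row. Libraries were compared in log2 CPM, counts scaled to the library total adjusted by TMM, a factor computed from all genes. Across all genes, proliferating and neuron replicate 1 correlated more closely (r = 0.918) than the proliferating replicates did (r = 0.825). The order was the opposite for the neuron replicates (r = 0.896) against proliferating and neuron replicate 2 (r = 0.852). These values are a description across genes that are not independent replicates. The deposited labels were also set against marker genes. The 14 neuron markers summed to 227 and 465 CPM in proliferating replicates 1 and 2 and to 251 and 444 CPM in neuron replicates 1 and 2. The neuronal tubulin gene Tubb3 had 233 and 1430 counts in proliferating cells and 342 and 1026 in neurons. The growth cone gene Gap43 had 5 counts in proliferating replicate 2 and 0 elsewhere, and Nefm had at most 1; these were picked after their values were seen. Elavl4, a neuronal RNA-binding protein gene with 92 and 90 counts against 211 and 373, and Map2, a dendritic microtubule protein gene with 1143 and 682 against 1444 and 1379, were also picked in that way. They were the 2 of 11 tested neuron markers whose neuron libraries both exceeded both proliferating libraries in CPM, with none the other way round. Of all 12783 genes tested, 1646 were higher in this way, and 27.4% did not overlap in either direction. Ina, a neuronal intermediate filament gene, had 92 and 129 counts against 78 and 158. The 7 progenitor and cell cycle markers summed to 397 and 304 CPM in proliferating cells and to 498 and 259 CPM in neurons, with Nes, the nestin gene, at 918 and 1530 counts against 1118 and 353 and Sox2, a progenitor transcription factor gene, at 362 and 355 against 402 and 216. Of these 7 genes, 4 were higher in neurons in both pairs (Mki67, Top2a, Cdk1 and Pcna, all of the cell cycle, named after their values were seen) and 0 were lower in both. Mki67 was 1.27-fold and 4.27-fold higher and Top2a 1.31-fold and 5.97-fold higher. Cdk1 was 1.09-fold higher in pair 1 (interval for counting error 0.888 to 1.34) and 1.55-fold in pair 2 (1.10 to 2.20). Pcna was 1.22-fold (0.946 to 1.58) and 1.24-fold (0.866 to 1.79) higher, within counting error in both pairs. The remaining cell cycle gene, Ccnb1, was lower in pair 1 (ratio 0.778) and higher in pair 2 (1.74), both within counting error. Among all 12783 genes tested, 3680 were higher in both pairs. The summed level of neither list separated the groups, and both sums differed between replicate numbers. The part of these differences in the results on release genes was not tested. In bulk RNA, fewer cells of a type and less RNA per cell cannot be told apart.

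Promoter sequence is shown for the 2 genes of the set whose promoter window held the word TTCAGCACC, the left part of the RE1 element that REST binds. The windows are the 250 bases before and 50 after a gene's start in the RefSeq table of GRCm38.p6 (mm10), which held 6 of the 8 genes. The word was searched on both strands, as TTCAGCACC or GGTGCTGAA, and occurred in 122 of 32851 windows (0.371%). Capitals mark the matches. The Syn1 stretch, chrX:20921005-20921168 on the minus strand, also holds TGACGTCA, the cAMP response element, found in 588 windows (1.79%). The Unc13a stretch is chr8:71671718-71671744 on the minus strand and shows the reverse complement of the word.
Syn1: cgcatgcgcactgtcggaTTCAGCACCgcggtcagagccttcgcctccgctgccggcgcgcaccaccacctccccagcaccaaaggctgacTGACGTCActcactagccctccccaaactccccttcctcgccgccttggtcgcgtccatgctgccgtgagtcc
Unc13a: cgcgcccccGGTGCTGAAgcgacatgg
In Syn1 the word spans -232 to -224 from the RefSeq start and the cAMP response element -159 to -152. In Unc13a it spans bases 23 to 31 after the start. A match describes the letters in these windows and not binding. Rest itself, the gene of the repressor, had 366 and 149 counts in proliferating cells and 347 and 144 in neurons, or 30.1, 20.2, 29.2 and 14.7 CPM. Its log2 difference, neurons minus proliferating cells, was -0.20 (SE 0.53, unadjusted edgeR p-value 0.719). Both replicate 2 libraries were below both replicate 1 libraries for Rest, while the groups overlapped.

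The SNARE genes come first. Snap25 (chr2:136713453-136782428, plus strand, mm10) encodes a SNARE attached to the cell membrane. It had 16 and 7 counts in proliferating cells and 2 and 35 counts in neurons, which is 1.31 and 0.948 CPM against 0.168 and 3.57 CPM. The neuron libraries were the lowest and the highest of all 4. Group means were 1.13 ± 0.260 and 1.87 ± 2.40 CPM (SD, n = 2 each), and the fitted log2 difference was 0.68 with an SE of 1.18 and a 95% interval of -2.07 to 3.44. Neurons were 7.81-fold lower in pair 1 (ratio 0.128, exact 95% interval 0.0143 to 0.544) and 3.77-fold higher in pair 2 (1.65 to 10.05). Both intervals exclude equality between those 2 libraries, in opposite directions, and they cover counting error only.

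Stx1a (chr5:135023482-135051100, plus strand) encodes syntaxin 1A, the SNARE anchored in the cell membrane. Its counts were 14 and 30 in proliferating cells and 19 and 14 in neurons, giving 1.15 and 4.06 CPM against 1.598 and 1.427 CPM. Proliferating replicate 2 stood above the other 3 libraries, and both neuron libraries lay between the proliferating ones. The means were 2.61 ± 2.06 and 1.51 ± 0.121 CPM (SD, n = 2 each), with a log2 difference of -0.75 (SE 0.78, 95% interval -2.57 to 1.07). The ratio of neurons to proliferating cells was 1.39 in pair 1 (0.660 to 2.99) and 0.351 in pair 2 (0.172 to 0.684), a 2.85-fold lower value.

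Vamp2 (chr11:69088490-69092384, plus strand) encodes synaptobrevin 2, the SNARE of the vesicle. It had 63 and 80 counts in proliferating cells against 31 and 75 in neurons, or 5.18 and 10.8 CPM against 2.61 and 7.65 CPM. It was the only gene of the 7 tested that was lower in neurons in both pairs, 1.99-fold in pair 1 (ratio 0.504, 0.317 to 0.786) and 1.42-fold in pair 2 (ratio 0.706, 0.508 to 0.980). The groups overlapped all the same, because neuron replicate 2 exceeded proliferating replicate 1, but with library size alone as the scaling they did not overlap. Means were 8.003 ± 3.997 and 5.13 ± 3.56 CPM (SD, n = 2 each), and the log2 difference was -0.64 (SE 0.67, 95% interval -2.20 to 0.92).

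Syt1 (chr10:108497650-109010982, minus strand) encodes synaptotagmin 1, the calcium sensor of fast release. Its counts were 17 and 9 in proliferating cells and 6 and 18 in neurons, giving 1.40 and 1.22 CPM against 0.505 and 1.83 CPM. The proliferating libraries were close to each other and the neuron libraries lay on either side of them. The means were 1.31 ± 0.126 and 1.17 ± 0.941 CPM (SD, n = 2 each), with a log2 difference of -0.18 (SE 0.88, 95% interval -2.24 to 1.88). Neurons were 2.77-fold lower in pair 1 (ratio 0.361, 0.117 to 0.960), and the ratio in pair 2 was 1.51 (0.643 to 3.81).

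**Figure D1:**
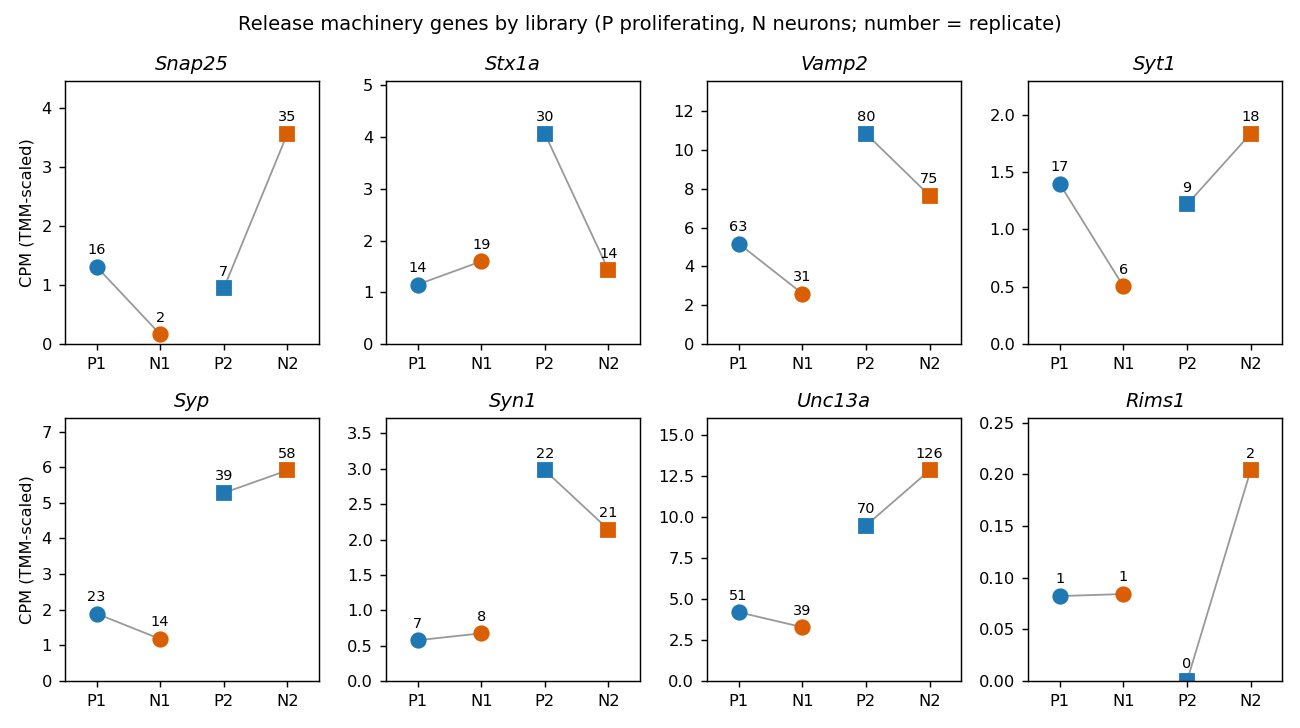
TMM-scaled CPM of the 8 release genes in the 4 libraries, with 1 panel for each gene and 1 point for each library (P proliferating, N neurons, then the replicate). The number at a point is its raw count and lines join the libraries of a pair; the groups overlapped for each of the 7 tested genes, and Rims1 lay at or below 0.204 CPM.

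For the vesicle genes Syp and Syn1, both replicate 2 libraries were above both replicate 1 libraries under each scaling compared. That is an order of the values, with no interval for counting error. Syp (chrX:7638471-7653256, plus strand) encodes synaptophysin, an abundant membrane protein of the vesicle. It had 23 and 39 counts in proliferating cells against 14 and 58 in neurons, or 1.89 and 5.28 CPM against 1.18 and 5.91 CPM. Both replicate 2 libraries were above both replicate 1 libraries, and the group means were nearly the same at 3.58 ± 2.40 and 3.55 ± 3.35 CPM (SD, n = 2 each). The log2 difference was -0.0052 (SE 0.86), with a 95% interval of -2.03 to 2.02. Pair ratios were 0.623 (0.297 to 1.26) and 1.12 (0.734 to 1.73). In the annotation, 16.8% of the Syp exon bases are shared with an antisense gene, Gm14703, and whether counting used the strand is not given in the sources used here, so some Syp counts may belong to it.

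Syn1 (chrX:20860511-20921004, minus strand) encodes synapsin I, which tethers vesicles in the reserve pool. It had 7 and 22 counts in proliferating cells and 8 and 21 in neurons, giving 0.575 and 2.98 CPM against 0.673 and 2.14 CPM. Here too both replicate 2 libraries exceeded both replicate 1 libraries. The means were 1.78 ± 1.70 and 1.41 ± 1.04 CPM (SD, n = 2 each), with a log2 difference of -0.30 (SE 0.99, 95% interval -2.63 to 2.02). Pair ratios of 1.17 (0.371 to 3.79) and 0.719 (0.376 to 1.37) both include 1. Syn1 is 1 of the 2 genes with the RE1 word shown above.

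The remaining genes act at the active zone. Unc13a (chr8:71624417-71671757, minus strand) encodes Munc13-1, which readies docked vesicles for fusion, and is the other gene with the RE1 word. It had 51 and 70 counts in proliferating cells and 39 and 126 in neurons, or 4.19 and 9.48 CPM against 3.28 and 12.8 CPM. Replicate 2 was above replicate 1 in both groups, and neuron replicates 1 and 2 were the lowest and the highest library. The means were 6.83 ± 3.74 and 8.06 ± 6.76 CPM (SD, n = 2 each), and the log2 difference was 0.24 (SE 0.74, 95% interval -1.49 to 1.98). The pair ratios were 0.783 (0.502 to 1.21) and 1.36 (1.004 to 1.84). Colgalt1, on the other strand, overlaps 3.92% of the Unc13a exon bases.

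Rims1 (chr1:22286251-22805994, minus strand) encodes RIM1, a scaffold that links vesicles and calcium channels at the active zone. It had 1 and 0 counts in proliferating cells and 1 and 2 in neurons, and did not pass the filter on low counts. The 0 in proliferating replicate 2 allows up to 0.406 CPM, the level of 3 counts. A difference between groups was not detectable at this depth. Its relative Rims2 had 90 and 40 counts in proliferating cells and 52 and 130 in neurons.

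Of the 7 tested genes, 0 were called at an adjusted p-value under 0.05, where 0% of the 12783 genes tested were called. Over all those genes edgeR gave 438 at an unadjusted p-value under 0.05, DESeq2 called 60, and edgeR with the replicate number as a block called 3. For each of the 7 genes the adjusted p-value was 0.9998 in the main edgeR test. At an unadjusted p-value under 0.05 the count was also 0, against a background of 3.43%, and their unadjusted edgeR p-values ran from 0.364 for Stx1a to 0.995 for Syp. No gene of the 7 had neuron libraries that were both above or both below the proliferating ones, while 27.4% of all tested genes did; with library size alone it was 1 of 7 (Vamp2) and 20.1%. The median of the 7 fitted log2 differences was -0.18, with 2 above 0 (Snap25 and Unc13a) and 5 below, beside 0.024 for all genes tested. With library size alone as the scaling, Snap25 and Unc13a were at -0.067 and -0.082, beside an all-gene median of -0.27. DESeq2 and the other settings tried called none of the 7 either, though DESeq2 gave no adjusted p-value for Syt1.

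By pair, 5 of the 7 genes were lower in neurons in pair 1 (background 50%) and 4 were higher in pair 2 (background 53.3%). The 4 that were lower in pair 1 and higher in pair 2 are 57.1% of the 7, against 24.5% of all tested genes. Stx1a and Syn1 went the opposite way and Vamp2 was lower in both. With library size alone Syn1 was also lower in pair 1 (ratio 0.897), which made it 6 of 7 against 75.6% of all genes, and the 4 genes stood against 36.2%. The median difference of the 7 in log2 CPM, computed with a prior count of 2 that shrinks low genes, was -0.60 in pair 1 and 0.16 in pair 2, beside -4.2e-05 and 0.067 for all genes. The 8 genes together gave 192 and 120 counts in proliferating and neuron replicate 1, a ratio of 0.640 after scaling (0.505 to 0.808). In replicate 2 they gave 257 and 349 counts, a ratio of 1.02 (0.868 to 1.21). The summed counts were thus lower in the neurons in pair 1 and within counting error of the proliferating cells in pair 2. With library size alone the pair 1 ratio was 0.491 (0.387 to 0.620).

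**Figure D2:**
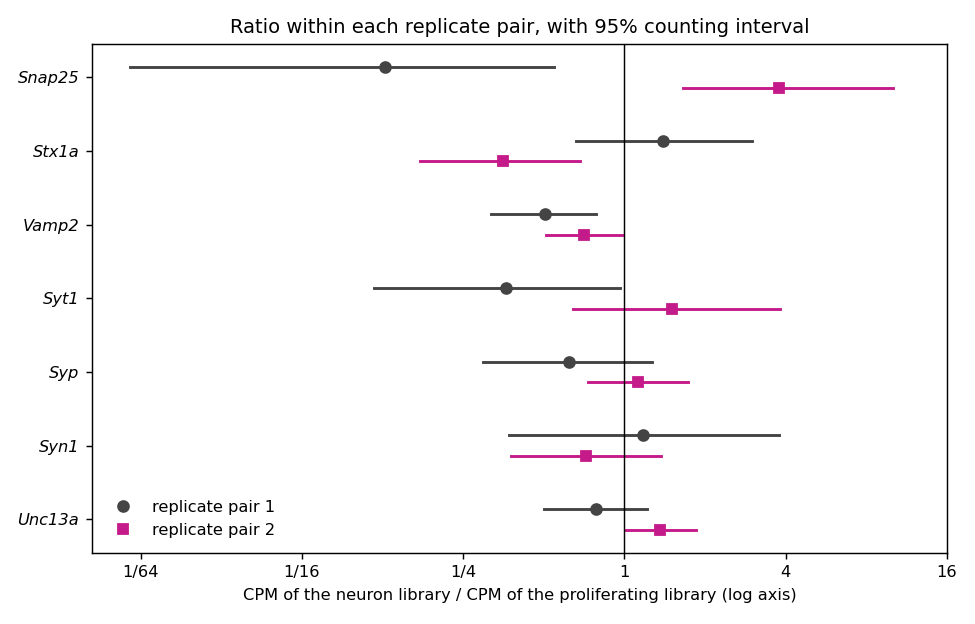
Ratio of TMM-scaled CPM in neurons to proliferating cells for the 7 tested genes on a log axis, pair 1 and pair 2 side by side, with exact 95% intervals for counting error. Snap25 has intervals on opposite sides of 1, and Vamp2 lies below 1 in both pairs.

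Levels also differed by replicate number. For Vamp2, Syp, Syn1 and Unc13a, 4 of the 7 tested genes, both replicate 2 libraries exceeded both replicate 1 libraries, against 22.8% of all genes tested. In either direction it was 4 of 7 against 48.8%, a share near the background. With library size alone Syp and Syn1 remained, 2 of 7, against 0.814% of all genes with replicate 2 above. In either direction it was then 2 of 7 against 71.1% of all genes, a smaller share than the background. The summed CPM of the 8 genes was 15.8 and 10.1 in proliferating and neuron replicate 1, and 34.8 and 35.6 in replicate 2. Scaled instead to the total without the 18S row, at the same unit, the sums were 55.3, 31.2, 99.0 and 100.8 in the same order. The 18S share was also higher in replicate 2, at 53.3% and 59.4% in replicate 1 and 75.0% and 76.1% in replicate 2. Within replicate 1 it was higher in the neurons, where the sums were lower. Its part in the result was not tested.

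**Figure D3:**
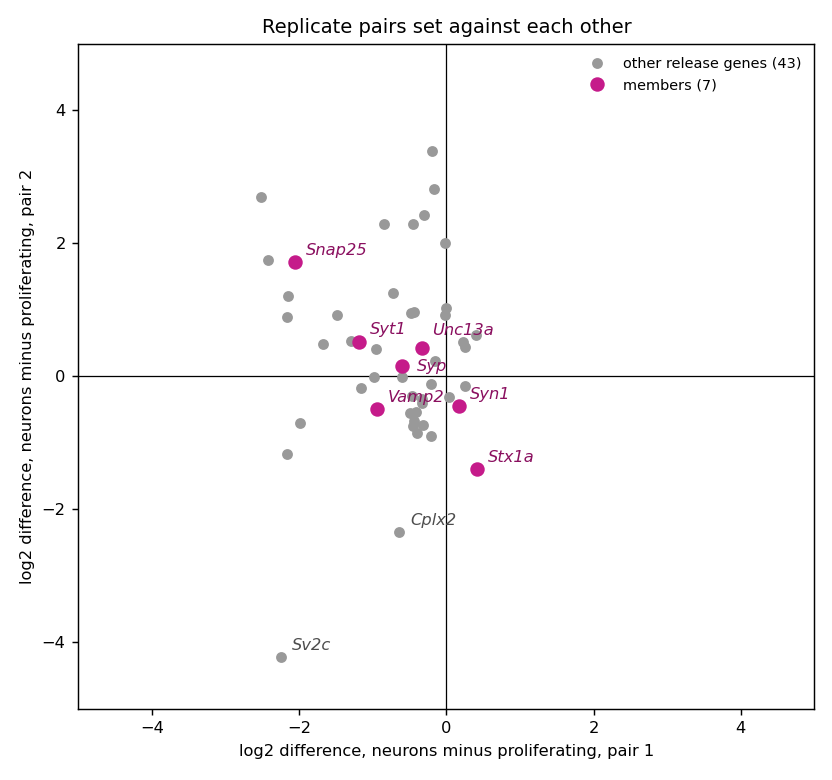
Difference in log2 CPM (prior count of 2), neurons minus proliferating cells, in pair 1 (x axis) against pair 2 (y axis) for the 7 tested genes and, in grey, the 43 other tested release genes. Snap25, Syt1, Syp and Unc13a lie where pair 1 is below 0 and pair 2 above 0.

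Levels of the 8 genes and their relatives were compared only per kilobase of exon, as TMM-scaled CPM per kb averaged over the 4 libraries. Vamp2 stood highest at 1.72, at percentile 73.9 of 21076 genes with a count. Stx1a (0.772), Syp (0.684), Unc13a (0.590) and Syn1 (0.482) followed, then Snap25 (0.221), Syt1 (0.149) and Rims1 (0.0126, percentile 5.31). Vamp2 exceeded Stx1a beyond counting error in proliferating cells, with ratios of 3.15 (1.75 to 6.09) and 1.87 (1.21 to 2.94). It did so in neuron replicate 2 at 3.75 (2.10 to 7.19) but not in neuron replicate 1, at 1.14 (0.625 to 2.14). The order of the 4 genes from Stx1a to Syn1 changed between libraries, and their means differed by less than their spread. Syt1 and Snap25 did not differ beyond counting error in 3 libraries, while in neuron replicate 2 Syt1 was at 0.419 of Snap25 (0.223 to 0.760).

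Each neuronal gene has relatives that serve secretion in most cells or other synapses. A ratio within a library does not depend on scaling. Snap23, the widely expressed relative of Snap25, had 60 and 16 counts in proliferating cells and 52 and 21 in neurons. Per kilobase, Snap25 was at 0.169 of Snap23 (0.0906 to 0.296) and 0.277 (0.0962 to 0.711) in proliferating cells, and at 0.0243 (0.00287 to 0.0924) and 1.05 (0.596 to 1.90) in neurons. Neuron replicate 2 was the single library in which Snap25 reached the level of Snap23. Vamp2 was below Vamp3, the SNARE of recycling vesicles, in all 4 libraries, at 0.373, 0.632, 0.341 and 0.599 in the order proliferating 1 and 2, neuron 1 and 2. Stx1a was likewise below Stx4a, a syntaxin of general secretion, at 0.183, 0.522, 0.432 and 0.327. These ratios did not separate the groups.

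Syt1 relative to Syt2, a related calcium sensor of fast release, was 2.60 (0.976 to 8.04) and 2.06 (0.575 to 9.16) in proliferating cells and 0.687 (0.196 to 2.26) and 0.500 (0.265 to 0.914) in neurons. Both neuron ratios were below both proliferating ones, with intervals that overlap except between proliferating replicate 1 and neuron replicate 2. Syt2 had 6 and 4 counts in proliferating cells and 8 and 33 in neurons and did not pass the filter on low counts. Syt1 reached between 0.0126 and 0.0343 of Syt11, a synaptotagmin that does not bind calcium, which had 291 to 475 counts in each library. Syp was at 0.254 and 0.244 of Sypl, its relative outside neurons, in proliferating and neuron replicate 1, and at 1.10 and 1.52 in replicate 2. Unc13a was at 0.609 and 0.406 of Unc13b in replicate 1 and at 1.66 and 1.56 in replicate 2. For both genes the intervals of replicate 1 and replicate 2 did not overlap, so these within-library ratios differed between replicate numbers in both groups. Syn1 relative to Syn2 was 0.182, 0.781, 0.631 and 0.293, with no order by group or by replicate.

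**Figure D4:**
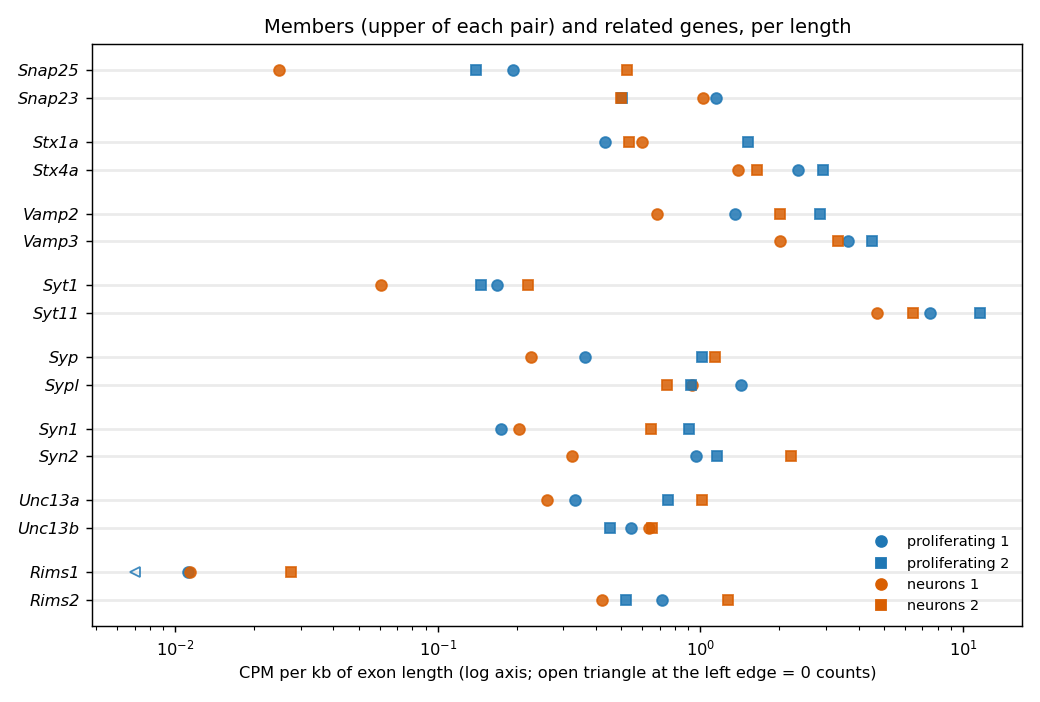
TMM-scaled CPM per kilobase of exon of each release gene and 1 relative in the 4 libraries, on a log axis, with blue for proliferating cells, orange for neurons, circles for replicate 1 and squares for replicate 2. Vamp3, Stx4a and Syt11 lie above Vamp2, Stx1a and Syt1 in every library.

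The other genes of the pathway gave no called change in the main edgeR test, which called 0% of all genes tested. Of 71 further genes for fusion, calcium sensing, the active zone, the vesicle and its recycling, 43 were tested and 0 were called, with 0 higher and 2 lower at an unadjusted edgeR p-value under 0.05, a share near the 3.43% of all genes tested. Their median log2 difference was -0.13, with 18 above and 25 below 0. In pair 1, 38 of the 43 (88.4%) were lower in neurons against 50% of all genes (42 against 75.6% with library size alone), and in pair 2, 23 (53.5%) were higher against 53.3%. The 20 genes that were lower in pair 1 and higher in pair 2 are 46.5%, against 24.5% of all tested genes. With library size alone it was 51.2% against 36.2%. By role the median was -0.13 for 11 fusion genes, -0.97 for 2 calcium sensors, 0.13 for 15 active zone genes, -0.31 for 8 vesicle genes and -0.25 for 7 recycling genes. The 12 tested genes of general exocytosis, expressed in most cells, had a median of -0.40, with 3 above and 9 below 0.

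Sv2c and Cplx2 were the 2 genes past the unadjusted threshold. Sv2c, a member of the SV2 family of vesicle proteins, had 33 and 96 counts in proliferating cells and 5 and 5 in neurons. It was 6.45-fold lower in pair 1 (2.50 to 21.2) and 25.5-fold lower in pair 2 (10.6 to 80.3), so the groups did not overlap. Its log2 difference was -4.03 (SE 0.90), and edgeR's adjusted p-value was 0.775. That was not a call, while DESeq2 gave an adjusted p-value of 0.00766 and edgeR without the gene filter 0.0003. Cplx2, which encodes complexin 2, a clamp and helper of the SNARE complex, had 161 and 307 counts in proliferating cells and 100 and 79 in neurons. Its log2 difference was -1.73 (SE 0.63, edgeR adjusted p-value 0.9998).

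The related genes Sv2a and Sv2b were chosen after their values were seen. Sv2a had 27 and 15 counts in proliferating cells and 21 and 115 in neurons, a ratio of 0.796 in pair 1 (0.428 to 1.46) and 5.77 in pair 2 (3.36 to 10.7). Sv2b had 1 and 0 counts against 7 and 42 and did not pass the filter on low counts. Its ratio in pair 1 was 7.17 (0.921 to 323), and in pair 2, with 0 counts in the proliferating library, the exact 95% lower limit of the ratio was 8.20. Without the gene filter, edgeR gave Sv2b a log2 difference of 5.34 and an adjusted p-value of 0.00453. The Sv2c values were lower and the Sv2b values higher in both neuron libraries, while Sv2a overlapped.

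Of the lists above, 4 of the 5 genes with the highest mean deposited RPKM, a choice that rests on the authors' gene lengths, are given here, and none of the 4 had a called change in the main test. Nsf, the ATPase that takes used SNARE complexes apart, had 121 and 143 counts in proliferating cells and 102 and 101 in neurons, a log2 difference of -0.63. The other 3, Syt11, Vamp3 and the endosomal syntaxin gene Stx12, had log2 differences of -0.78, -0.60 and -0.44. The following low genes were also picked after their values were seen. The vesicular glutamate transporter genes Slc17a6 and Slc17a7 had at most 2 counts in any library. Slc32a1, the vesicular GABA transporter gene, and Rph3a, a partner of Rab3, had 0 counts in all 4.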

How the data were processed

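RNA was depleted of ribosomal RNA and made into libraries with a Takara SMARTer stranded kit, per the labels' protocols. The deposited files give, for each gene, a raw count and an RPKM value made by the authors. Per the submitters' processing notes, HISAT2, SAMtools, featureCounts, DESeq2, deepTools 3.4.3 and the mm10 build were used; annotation, strand setting and multi-mapping reads are not given in the sources used here. The deposited RPKM implies a gene length from 0.476 (Syp) to 11.3 (Unc13a) times the exon length, so levels were compared as CPM per kb of GENCODE M21 exon. Counts carry no molecular identifiers and intervals cover counting error only.

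Counts were tested with edgeR 4.0.16 in R 4.3.3 (TMM, filterByExpr with a minimum count of 10 and total of 15, glmQLFit, glmQLFTest, a group term alone) with the 4 libraries in 1 fit, two-sided, with Benjamini-Hochberg adjustment over 12783 genes of 49997. Standard errors and intervals were derived from the F statistic. Pair ratios are of TMM-scaled CPM with exact Clopper-Pearson intervals at 95%, with no test. A permutation of 2 against 2 cannot give p under 0.333, so none was made. Scripts were tested on simulated data. One count was worth 0.0822 to 0.135 CPM.

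Same-numbered libraries deviated together (r = 0.33 across genes), and set 2 in the titles was taken to mark a shared set; what a set is remains not stated. Alternatives were RLE or no scaling factors, DESeq2 1.42.0, other filters, limma 3.58.1 on log2 RPKM, the 18S row left out, GC correction, a replicate block and each library left out.

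Members and lists were chosen with earlier results of these data known. Named genes were the 8 members, genes of the pathway lists with unadjusted p under 0.05 and the 5 of highest mean RPKM, relatives of members, the 2 markers of highest RPKM in each marker list, markers at 0 in all libraries, Rest, and the 3 genes most like Vamp2. One gene that this rule names is not reported here. Stx4 is listed as Stx4a.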

Additional observations from a re-analysis of the deposited data

How the results depend on the processing

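No setting called any of the 7 tested release genes, though DESeq2 gave no adjusted p-value for Syt1. The number of genes called among all tested was 0 in the main edgeR test, 60 with DESeq2 (12 higher, 48 lower), 163 without a gene filter, 2 with library size alone, 1 and 2 with limma on log2(RPKM + 1) and log2(RPKM + 0.1), 3 with the replicate block, 16 with GC correction and replicate block, and 13 to 127 with 1 library left out. The cause was not tested. RLE factors, the CPM filter, the 18S row left out and GC correction alone also called 0. Library size alone moved the median of all genes from 0.024 to -0.27.

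The log2 difference of Snap25 (0.68) turned to -0.067 with library size alone, -0.010 and -0.12 with limma on log2(RPKM + 1) and log2(RPKM + 0.1), -0.096 with the replicate block and -0.76 with GC correction and replicate block. That of Unc13a (0.24) turned to -0.082, -0.0039 and -0.036 with library size alone and the same 2 limma fits. Syn1 turned to 0.031 with GC correction and replicate block, and Syp to 0.055 without a gene filter. Among the 7 tested release genes, Sv2c, Cplx2, Nsf, Vamp3, Syt11 and Stx12, the replicate block changed no other direction and no call.

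With 1 library left out, the lone library is assumed to vary like the others. The log2 difference then ran from -2.68 to 1.59 for Snap25, -1.36 to 0.44 for Syt1, -1.35 to 1.26 for Syn1, -1.58 to 0.89 for Syp, -1.44 to 0.39 for Stx1a, -1.61 to -0.022 for Vamp2 and -1.05 to 0.94 for Unc13a. It ran from -0.81 to 0.22 for Rest. The median of the 7 ran from -1.36 to 0.48, and that of the 43 other release genes from -0.75 to 0.23. Directions turned for Snap25 without neuron replicate 2, for Syt1 without neuron replicate 1, for Syn1 and Syp without proliferating replicate 2 or neuron replicate 1, for Stx1a without proliferating replicate 2, and for Unc13a without proliferating replicate 1 or neuron replicate 2. Without proliferating replicate 1 the calls over all genes were the 127. Sv2c and Cplx2 were called without proliferating replicate 1, with edgeR adjusted p-values of 0.00954 and 0.0366; over all settings the adjusted p-value of Sv2c ran from 0.0003 to 1.0. The pair ratios of the 8 genes and of the SV2 genes with a count in both libraries stayed inside their intervals with library size alone and with the 18S row left out. The summed ratio in pair 1 moved from 0.640 to 0.491 with library size alone. In that setting the pair 1 intervals of Syp (0.227 to 0.969) and Unc13a (0.385 to 0.929) came to lie below 1, and the pair 2 interval of Unc13a (0.956 to 1.75) to include 1. Rims1, at 0 to 2 counts, limits what depth can show.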

Other observations

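The summed level of genes of regulated secretion outside synapses did not separate the groups. The 8 neuroendocrine genes summed to 50.2 and 45.3 CPM in proliferating cells and 22.0 and 55.6 CPM in neurons. Cpe, the carboxypeptidase that trims peptide hormones, had 466 and 236 counts against 230 and 400, and Chgb, a granin of dense-core granules, had 16 and 10 against 5 and 40. Neuron replicate 1 was the lowest library for both genes. Scg3 and Scg2 are granin family genes named after their values were seen. Scg3 had 9.94 and 10.02 CPM against 1.77 and 9.89, so neuron replicate 1 was low and neuron replicate 2 close to the proliferating cells. Scg2 had 3 and 11 counts against 0 and 0. Of all genes tested, 27.4% had groups that did not overlap, in either direction.

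The 9 hair cell markers summed to 24.6 and 19.2 CPM in proliferating cells and 4.79 and 22.4 CPM in neurons. Otof, the calcium sensor of hair cell release, and Pou4f3 had 0 counts in all 4 libraries, while Myo6 had 256 and 121 counts against 54 and 122. Atoh1 had 17 and 18 counts against 1 and 91. The 9 glial markers summed to 73.9 and 72.0 CPM in proliferating cells and 25.8 and 9.48 CPM in neurons, with Fabp7 at 272 and 362 counts against 211 and 9 and Cnp at 76 and 76 against 58 and 72. The part of these markers in the values of the release genes was not tested. The 6 genes of REST and its partners summed to 144 and 132 CPM against 174 and 161 CPM, higher in both neuron libraries with TMM scaling. In counts, neuron replicate 2 had 1583 of 3461544 without the 18S row and proliferating replicate 1 had 1757 of 3474760. Scaled to those totals, the groups overlapped. Of the 6 genes, 2 had groups that did not overlap, both higher in neurons, against 27.4% of all genes tested in either direction.

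The 3 genes whose centred log2 CPM over the 4 libraries lay nearest to that of Vamp2 were Ttbk1, B630019K06Rik and Zswim7, at Euclidean distances of 0.0618, 0.143 and 0.162. This likeness rests on 4 libraries.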
